A study of Mus musculus with 12 samples.

Results

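Wild-type medullary thymic epithelial cells (mTECs) with high surface MHC class II, called mTEChi, were compared with those with low MHC class II, called mTEClo. The comparison used 6 of the 12 arrays of the series, chosen by genotype and cell type: 2 of Aire+/+ mTEChi, 2 of Brg1+/+ mTEChi, 1 of Aire+/+ mTEClo and 1 of Brg1+/+ mTEClo. All came from the thymus of C57BL/6 mice aged 4 weeks. Per the labels' protocols, digested thymi were enriched for stroma, and live cells negative for CD45 and positive for Epcam and for the lectin UEA, with low Ly51, were split by MHC class II. The other 6 arrays hold Aire-/- and Brg1-/- cells sorted alike. Aire is a transcriptional regulator, and Brg1, the product of Smarca4, is the motor subunit of SWI/SNF complexes, which move nucleosomes. The labels name neither the alleles nor, for Brg1, how the gene was removed, and they do not say how many animals stand behind an array. Separate animals are not stated for the arrays of a group. All 12 arrays entered the fit, and the p-values reflect the scatter within the mTEChi groups, Aire-/- and Brg1-/- among them. Each mTEClo group is 1 array and adds no scatter. That scatter could be technical.

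mTECs display self-antigens to developing T cells, which tests those cells for self-reactivity before they leave the thymus. In the maturation sequence described for these cells, mTEClo include immature cells and several specialised cell types, and mTEChi carry the costimulatory molecules CD80 and CD86. Aire, made in mature mTECs, lets them transcribe many genes that are otherwise restricted to peripheral tissues. Some mTECs take on programmes of peripheral cell types such as tuft cells, and these cells are commonly found with low MHC class II.

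The mTEChi and mTEClo arrays were set apart by many genes of peripheral tissues on the mTEChi side and by a smaller group, with tuft cell and taste receptor genes among them, on the mTEClo side. The difference between mTEChi and mTEClo was taken within each line and averaged over the Aire and Brg1 lines, on the log2 scale of the deposited intensities, where a difference of 1 is a 2-fold change. A gene is called higher or lower here where limma gave a Benjamini-Hochberg adjusted p under 0.05 over 22154 genes. In this sense 427 genes were higher in mTEChi, 1.93% of those tested, and 140 were lower, 0.632%. The scatter of the Aire-/- and Brg1-/- mTEChi arrays enters these calls, and fewer genes were called with the wild-type arrays alone. The median difference was 2.27 among the 427 and -1.67 among the 140, while the median of all genes was -0.10. A 4-fold difference was reached by 265 of the 427 and by 43 of the 140, and a 16-fold difference by 26 and by 0. On the wild-type arrays the 4 mTEChi values did not overlap the 2 mTEClo values in 564 of the 567 called genes. Over all genes 11.4% had 4 mTEChi values above both mTEClo values, and 17.7% had them below. The genes were called on these same values, so the count of 564 is a description.

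Arrays that carry the same number in their titles shifted together, and this bears on every value below. The difference between array 1 and array 2 of a group correlated across genes between mTEChi groups with a Pearson r of 0.552 to 0.657 over the 6 pairs of groups, and genes are not independent replicates. Both wild-type mTEClo arrays are numbered 1, so an mTEClo array numbered 2 was not analysed here, and the labels do not say what the number marks. With the array number as a term in the fit, which takes any shift of mTEClo to be like that of mTEChi, 1065 genes were called higher (4.81%) and 692 lower (3.12%), and all 567 genes were among them. On the arrays numbered 1 alone, a value with no test, all 567 kept their direction in both lines. The median there was 2.26 for the genes called higher and -1.67 for those called lower. The genes were called on averages that include these arrays, so this is a description and no independent check. Counts with this term are written below as "with the array number", and where a list or family has none beside it the term moved its count by no more than 1.5 times. The median level of a gene lay between 5.43 and 5.50 on arrays numbered 1 and between 5.32 and 5.36 on those numbered 2. Precision is limited by how few arrays there are.

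Brg1+/+ mTEChi array 2 stood apart in H2-Ea, a class II chain gene that C57BL/6 mice do not express, as background. It read 11.42 there and 3.98 to 4.62 on the other 5 wild-type arrays. On the Brg1-/- arrays H2-Ea read 11.32 and 11.60 in mTEChi and 10.11 in mTEClo, while the Aire-/- arrays lay between 4.20 and 5.89. This goes against the labelled strain, C57BL/6, for those 4 arrays, and the part of strain in the results was not tested. Without Brg1+/+ mTEChi array 2, 383 genes were called higher and 87 lower.

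Genes of the maturation state, which were not used for the sort, came first. Cd80, a costimulatory ligand for T cells, read 8.96 and 9.76 (log2 intensity) in Aire+/+ mTEChi, 9.32 and 10.45 in Brg1+/+ mTEChi, 6.18 in Aire+/+ mTEClo and 6.96 in Brg1+/+ mTEClo. Cd86, the partner ligand, read 7.98 and 7.26, 8.05 and 7.46, then 4.75 and 5.72, in the same order. Each mTEChi array exceeded each mTEClo array for both genes. Cd80 rose 8.30-fold (log2 3.05, SE 0.377, limma adjusted p = 0.010) and Cd86 5.47-fold (log2 2.45, SE 0.338, limma adjusted p = 0.0128). Here and below, leaving out the only wild-type mTEClo array of a line means that the other line's difference alone is tested. On the arrays numbered 1 alone the log2 differences were 2.57 for Cd80 and 2.78 for Cd86. Neither was called in limma without the Aire+/+ mTEClo array (adjusted p = 0.0989 for Cd80 and 0.201 for Cd86) or without the Brg1+/+ mTEClo array (adjusted p = 0.059 and 0.0579).

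Aire read 8.04 and 8.80 in Aire+/+ mTEChi, 7.96 and 9.50 in Brg1+/+ mTEChi, 6.43 in Aire+/+ mTEClo and 6.53 in Brg1+/+ mTEClo. The arrays numbered 2 were the higher mTEChi arrays, and the groups did not overlap. The log2 difference of 2.10 (SE 0.467, limma adjusted p = 0.0743) was not called, but it was called with the array number (log2 1.67, limma adjusted p = 0.00611), and on the arrays numbered 1 alone it was 1.52.

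Of 19 measured genes of an mTEC maturation list, 6 rose and 0 fell, and with the array number 11 rose. Beside Cd80 and Cd86 these were Ccl17 (2.27), a chemokine that draws CCR4-bearing thymocytes, the small surface protein gene Cd52 (1.74), the homeobox gene Cdx1 (1.22) and the CD40 receptor gene Cd40 (1.18). The list's median was 1.18 against -0.10 over all genes. Fezf2, a transcription factor that drives a further share of tissue antigens, read 8.31 and 8.83 in Aire+/+ mTEChi, 8.38 and 8.97 in Brg1+/+ mTEChi, against 7.63 and 7.64 in mTEClo. Its difference of 0.99 (SE 0.278, limma adjusted p = 0.155) was called only with the array number (limma adjusted p = 0.0309). Ccl22, the other CCR4 ligand gene, and Hdc, which encodes histidine decarboxylase, behaved likewise, with differences of 1.84 and 2.66 that were called only with the array number.

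**Figure D1:**
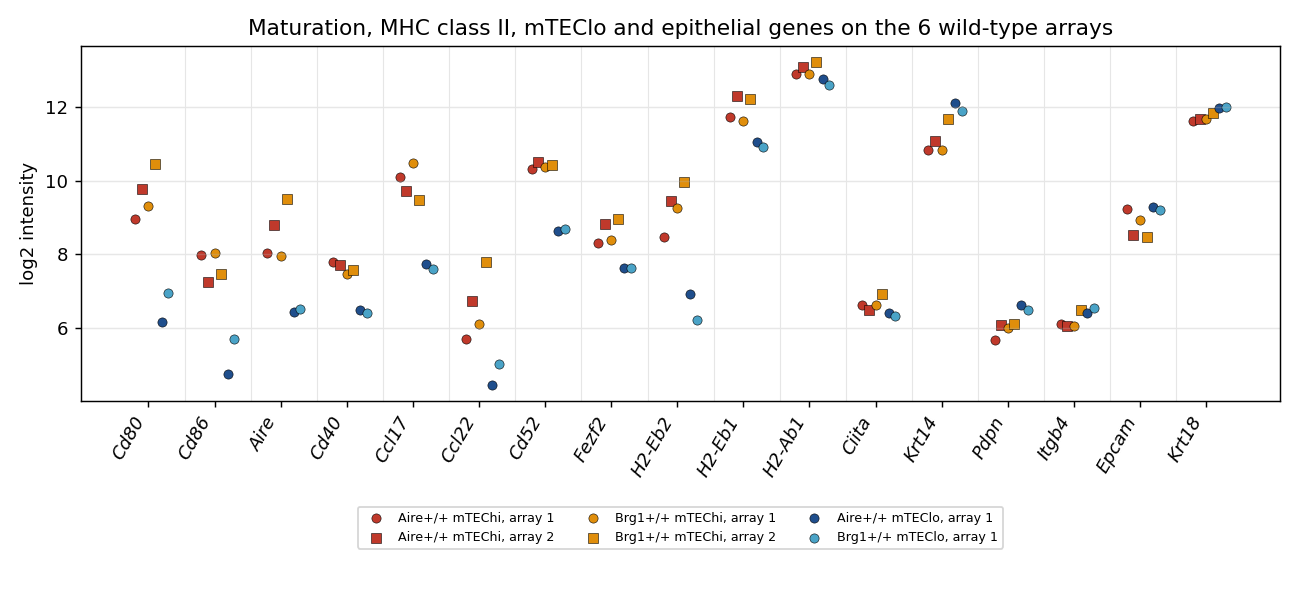
Log2 intensity of 17 genes on the 6 wild-type arrays; colours give line and cell type, circles arrays numbered 1 and squares arrays numbered 2. Cd80, Cd86 and Ccl17 sit higher on all 4 mTEChi arrays, H2-Ab1 lies between 12.6 and 13.2 on every array, and Krt14 is highest on the 2 mTEClo arrays.

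MHC class II protein was used for the sort, and most genes of its presentation pathway were not called at the RNA level. H2-Ab1, a class II chain gene, read 12.90 and 13.08 in Aire+/+ mTEChi, 12.89 and 13.21 in Brg1+/+ mTEChi, against 12.76 and 12.59 in mTEClo, a difference of 0.35 (SE 0.211, limma adjusted p = 0.571). Ciita, the class II transactivator gene, differed by 0.32 (limma adjusted p = 0.596). Of 20 genes of class II presentation 1 rose: H2-Eb2, which read 8.46 and 9.45, then 9.27 and 9.97 in mTEChi against 6.94 and 6.23 in mTEClo, a rise of 2.70 (SE 0.381, limma adjusted p = 0.0137). With the array number 5 rose and 2 fell. Among those called only with it were H2-Oa, a chain of a peptide-loading modulator (1.86), the lysosomal genes Ctss (1.23) and Ifi30 (1.16), and, on the lower side, the cathepsin gene Ctsl (-1.42). The difference of H2-Ea, 2.07 (limma adjusted p = 0.648), rests on Brg1+/+ mTEChi array 2. None of 23 class I and immunoproteasome genes was called in limma, where 1.93% of all genes rose and 0.632% fell.

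Ligands and chemokines that reach T cells were among the rises. Of 23 costimulatory and coinhibitory ligands 5 rose and 0 fell, and with the array number 5 rose and 2 fell. The latter were the death ligand gene Tnfsf10 (-2.04) and the galectin gene Lgals9 (-0.97). Cd70 read 8.93 and 9.52 in Aire+/+ mTEChi, 8.97 and 9.49 in Brg1+/+ mTEChi, 6.15 in Aire+/+ mTEClo and 7.11 in Brg1+/+ mTEClo, a rise of 2.60 (SE 0.457, limma adjusted p = 0.0316). Tnfsf9, which encodes the 4-1BB ligand, rose by 2.25, and Cd80, Cd86 and Cd40 make up the rest. The gene of PD-L1, Cd274, differed by 0.35 (limma adjusted p = 0.643). Of 33 chemokines and cytokines 6 rose and 1 fell, and with the array number 13 rose and 4 fell. Xcl1, which attracts thymic dendritic cells, read 10.10 and 9.55, then 10.08 and 8.99 in mTEChi against 6.80 and 7.73 in mTEClo and rose by 2.42. Ccl2 rose by 1.98, Ccl25 by 1.61 and Cxcl1 by 1.28. Ccl5 rose from 11.34 and 11.66 in mTEClo to between 12.76 and 13.13 in mTEChi. The cytokine that fell was Il25, a tuft cell product taken up below.

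Under the naming rule, which leaves out predicted genes and clone names, the largest rises belonged to genes of peripheral tissues. Some left-out names rose further, by up to 5.54. Mup6, a major urinary protein gene of the liver, read 9.81 and 9.80 in Aire+/+ mTEChi, 9.37 and 9.54 in Brg1+/+ mTEChi, 5.85 in Aire+/+ mTEClo and 2.93 in Brg1+/+ mTEClo. Mup20, of the same family, read 8.57 and 8.28, then 8.62 and 7.18 in mTEChi against 2.99 and 2.87. Mcpt2, a mast cell protease gene, read 8.37 and 8.73, then 8.26 and 7.92 against 3.22 and 3.25. All mTEChi arrays were high and the mTEClo arrays low, with Mup6 the only one of these genes whose mTEClo arrays lay far apart. The log2 rises were 5.24 for Mup6 (SE 0.538, limma adjusted p = 0.00515), 5.23 for Mup20 (SE 0.487) and 5.09 for Mcpt2 (SE 0.24, limma adjusted p = 0.000993). Without a detection call, such low mTEClo readings are not known to lie above background, and no linear fold is given for these genes. Without the Brg1+/+ mTEClo array Mup6 was not called (limma adjusted p = 0.0894).

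The other genes among the 15 with the largest rises cover many organs. They are the stefin Csta3 (4.74), the epididymal lipocalin Lcn8 (4.64), the submandibular kallikrein Klk1b9 (4.64), Pate12 of the male tract (4.62), the cystatin Cst10 (4.47), and the odorant-binding proteins Obp2a (4.47) and Obp1a (4.41). Spink14, a protease inhibitor gene, rose by 4.41, Bpifa5 of the BPI-fold family by 4.32, the eosinophil ribonuclease gene Rnase2a by 4.23, the pancreatic lectin gene Reg2 by 4.22 and the stomach gene Gkn2 by 4.16. Klk1b9 read 11.54 to 11.73 in mTEChi against 7.23 and 6.81 in mTEClo. Reg2 differed between lines, with 8.32 and 9.11 in Aire+/+ mTEChi and 6.57 and 6.60 in Brg1+/+ mTEChi, and both stood above mTEClo at 4.10 and 2.75. Of the 427 genes, 168 (39.3%) lay below the array median on both mTEClo arrays, against 45.2% of all genes.

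**Figure D2:**
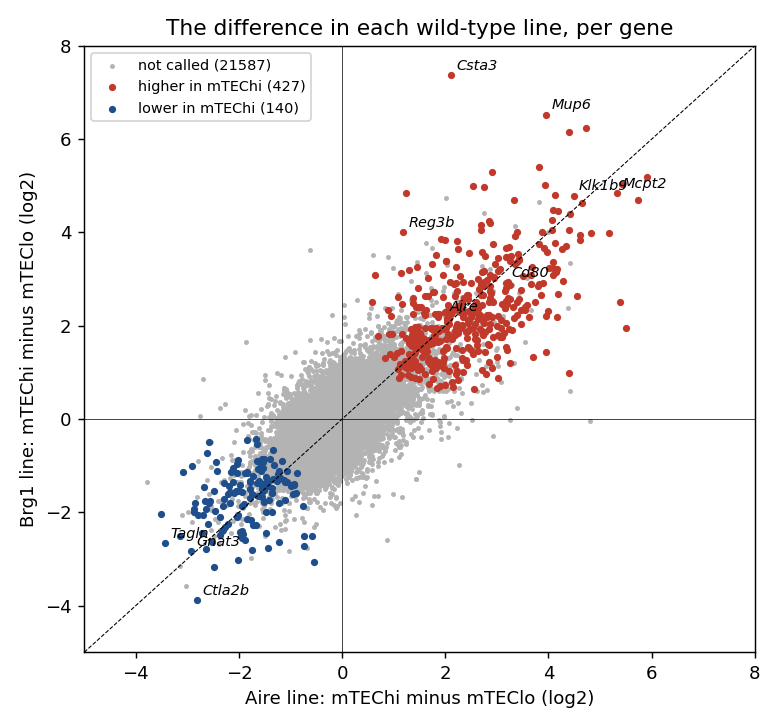
Each point is 1 of 22154 genes, with mTEChi minus mTEClo in the Aire line (x, log2) against the Brg1 line (y, log2); red marks the 427 genes called higher, blue the 140 called lower, and the dashed line equality. Called genes lie at the upper right and lower left, and Csta3 and Mup6 stand above the line because their Brg1+/+ mTEClo array is the lower one.

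Tissue lists were then counted by organ. Like all lists and families here, they were chosen with earlier results of these data known, so their shares are descriptions. Over 15 lists together, 61 of 300 measured genes rose (20.3%) and 0 fell, against 1.93% and 0.632% of all genes. With the array number 107 rose and 3 fell, against 4.81% and 3.12% of all genes. The median difference over these 300 genes was 0.58, and 0.53 on the arrays numbered 1. In the intestine list 10 of 28 rose (15 with the array number), among them the ileal bile acid carrier Fabp6 (2.50), the enterocyte fatty acid carrier Fabp2 (2.33), the guanylin gene Guca2a (2.29) and the trefoil peptide Tff3 (1.65). In the brain and nerve list 7 of 21 rose, led by the hypothalamic peptide genes Pmch (3.47), Npy (2.91) and Oxt (2.31). Pmch, which encodes melanin-concentrating hormone, read 8.20 and 7.83 in Aire+/+ mTEChi, 8.09 and 8.36 in Brg1+/+ mTEChi, against 4.77 and 4.53 in mTEClo.

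Among salivary and lacrimal genes 7 of 20 rose, among pancreatic acinar genes 6 of 24 and among liver genes 6 of 30. The last 2 lists gave 10 rises and 1 fall each with the array number. Retina and lens genes gave 5 of 19, testis, ovary and oocyte genes 5 of 21, and epididymis, prostate and seminal vesicle genes 5 of 25. Testis, ovary and oocyte genes gave 9 rises with the array number, and epididymis, prostate and seminal vesicle genes 12. Stomach gave 3 of 17 (7 with the array number), and the islet, mammary and lung lists gave 2 each, of 14, 12 and 17 (4, 6 and 3 with the array number). Kidney and thyroid gave 1 of 12 (3 with the array number), and adipose, bone and cartilage 1 of 17 (2 with it). Skeletal and heart muscle gave 0 of 24 in limma, and 3 rose and 1 fell with the array number. Within these lists the oocyte genes Oosp2 (3.79) and Oosp1 (3.78), the gastric lipase Lipf (3.38), trypsinogen Prss1 (3.27), pancreatic polypeptide Ppy (2.94), the fibrinogen chain Fgb (2.45), beta-casein Csn2 (1.80) and surfactant protein Sftpc (1.88) rose.

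Well-known autoantigen genes were not uniformly among the rises. Ins2, which encodes insulin, read 5.14 and 5.38 in Aire+/+ mTEChi, 4.70 and 4.97 in Brg1+/+ mTEChi, against 3.99 and 4.41 in mTEClo. All 4 mTEChi values exceeded the 2 mTEClo values, and the difference of 0.85 (SE 0.314, limma adjusted p = 0.306) was not called. Tg, the thyroglobulin gene, was not called in either fit. The myelin gene Mbp differed by 0.35 (limma adjusted p = 0.558).

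**Figure D3:**
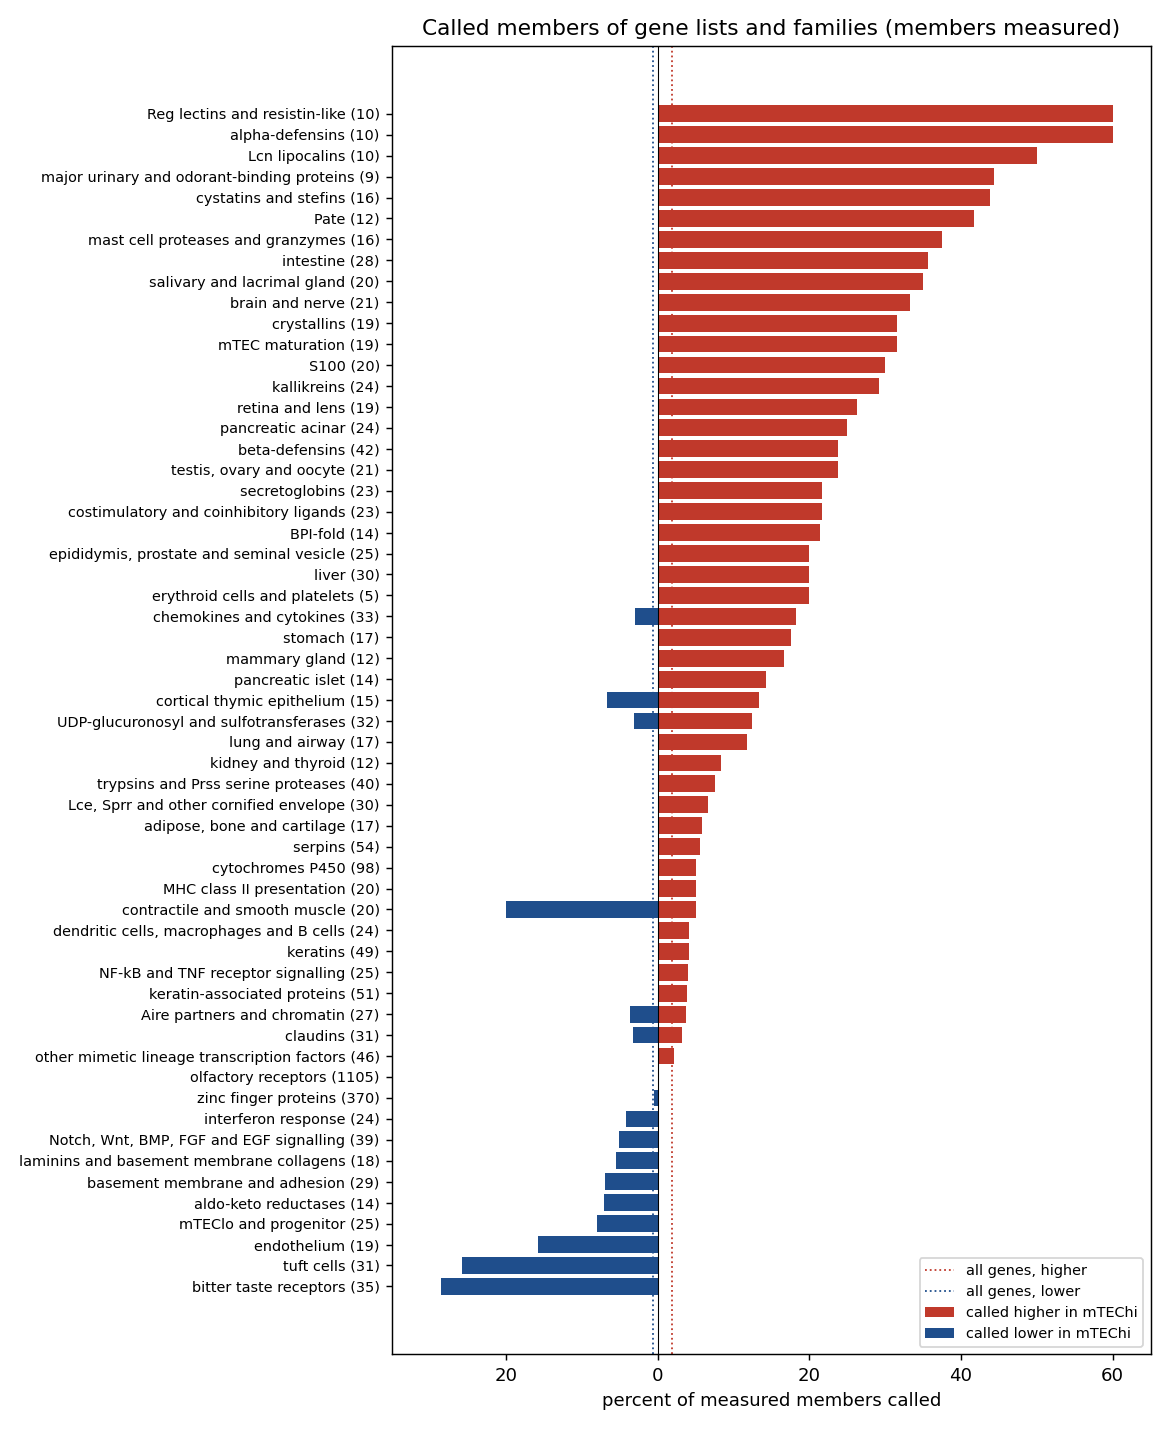
Percent of each list's or family's measured members called higher (red, to the right) or lower (blue, to the left) in mTEChi, for those with a called member and at least 5 measured; the number measured is in brackets and dotted lines mark 1.93% and 0.632% over all genes. Alpha-defensins, with 6 of 10 members higher, reach furthest to the right, as do Reg lectins and resistin-like genes, while bitter taste receptors and tuft cell genes lie wholly on the lower side.

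Families of secreted proteins were counted next, and their members often sit in clusters of near copies, so a probe set may read several of them. Probe sequences were not analysed here. Of 10 alpha-defensins, the Paneth cell peptides, 6 rose. Defa21 read 11.69 and 12.13 in Aire+/+ mTEChi, 11.80 and 12.04 in Brg1+/+ mTEChi, against 7.64 and 8.28 in mTEClo, a rise of 3.96. Defa22 rose by 3.65 and Defa24 by 3.70. All 3 Dcpp genes, which encode demilune cell proteins of salivary glands, rose: Dcpp3 by 3.33, Dcpp1 by 3.25 and Dcpp2 by 2.39. Of 24 kallikreins 7 rose (11 with the array number), and all of the 7 are Klk1b genes, such as Klk1b22 (3.67).

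Further families showed the same direction. Of 42 beta-defensins 10 rose and with the array number 20, led by Defb8 (4.11) and Defb46 (4.01). Cystatins and stefins gave 7 of 16, Reg lectins and resistin-like genes 6 of 10, crystallins 6 of 19, mast cell proteases and granzymes 6 of 16, and S100 genes 6 of 20, among them S100z (3.43). There were 11 rises and 1 fall of S100 genes with the array number, and 9 rises and 1 fall of cystatins and stefins. Lipocalins of the Lcn group gave 5 of 10, Pate genes 5 of 12, secretoglobins 5 of 23 (9 with the array number), BPI-fold genes 3 of 14, and major urinary and odorant-binding proteins 4 of 9. None of these families had a member that fell in limma. Cytochromes P450 gave 5 rises of 98, serpins 3 of 54 and keratins 2 of 49, against 1.93% of all genes. These were 12 rises and 1 fall, 11 and 0, and 7 and 3 with the array number, against 4.81% and 3.12%. None of 22 matrix metalloproteinases, 11 mucins or 63 ribosomal protein genes was called in limma. A fit with the array number called 1 metalloproteinase higher, 1 lower and 1 mucin higher. Of 1105 olfactory receptors 1 rose and 0 fell, and of 287 vomeronasal receptors 0 were called. The same fit called 7 olfactory receptors higher and 8 lower, and 1 vomeronasal receptor higher and 2 lower.

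In the remaining families Prss serine proteases gave 3 rises of 40, cornified envelope genes 2 of 30 (Lce1m and Sprr2k), and keratin-associated proteins 2 of 51. These became 7 rises and 1 fall, 6 and 1, and 5 and 0 with the array number. Over all genes 1.93% rose and 0.632% fell, or 4.81% and 3.12% with the array number. Keratin-associated proteins, with 3.92% higher, and claudins, with 3.23% higher, lay near the first of these shares. UDP-glucuronosyl and sulfotransferases gave 4 rises and 1 fall of 32, and 7 and 1 with the array number. Among 31 claudins Cldn13 rose (2.60) and Cldn5 fell (-1.93). Aldo-keto reductases gave 0 rises and 1 fall of 14, but 4 rises and 2 falls with the array number. Integrins gave 0 of 30, and laminins and basement membrane collagens 1 fall of 18. Of 370 zinc finger genes 2 fell, and with the array number 1 rose and 19 fell, against 3.12% of all genes on the lower side.

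The 100 bases before the RefSeq start site (GRCm38.p6) are shown for Aire and for 5 of the rising genes, because they carry a shared promoter element or show how alike cluster members are. They were read 5′ to 3′ on the strand of the gene, and capitals mark TATAAA, the core of a TATA box, which was searched on that strand only. The windows are chr10:78043611-78043710 on the minus strand for Aire, and, on the plus strand, chr4:60003381-60003480 for Mup6, chr6:87373265-87373364 for Gkn2, chr6:78405055-78405154 for Reg2, chr8:21025445-21025544 for Defa21 and chr8:21162177-21162276 for Defa22. 
Aire: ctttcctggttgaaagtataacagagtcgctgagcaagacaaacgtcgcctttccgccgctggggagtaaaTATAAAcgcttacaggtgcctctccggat
Mup6: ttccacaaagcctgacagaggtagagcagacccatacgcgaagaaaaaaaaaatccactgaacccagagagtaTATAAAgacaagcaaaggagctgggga
Gkn2: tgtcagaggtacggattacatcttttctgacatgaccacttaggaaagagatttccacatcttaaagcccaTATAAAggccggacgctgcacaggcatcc
Reg2: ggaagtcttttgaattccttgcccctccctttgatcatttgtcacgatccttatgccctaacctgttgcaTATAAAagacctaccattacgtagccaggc
Defa21: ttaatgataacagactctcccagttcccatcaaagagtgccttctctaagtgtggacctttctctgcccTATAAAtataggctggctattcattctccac
Defa22: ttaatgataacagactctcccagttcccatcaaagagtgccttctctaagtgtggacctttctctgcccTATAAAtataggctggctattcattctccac

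TATAAA began 29 bases before the start in Aire and Gkn2, 27 in Mup6, 30 in Reg2 and 31 in both defensins. The 250 bases before the start were identical between Defa21 and Defa22 (250 of 250), 94.7% identical between Dcpp1 and Dcpp3, and 87.2% between Klk1b9 and Klk1b22 in ungapped alignments. The rising genes Dcpp1, Dcpp3, Klk1b9 and Klk1b22 held no TATAAA in these bases, and their windows are not shown. Of the 15 genes with the largest rises 12 had a promoter in the table, and 6 of these held TATAAA between 20 and 40 bases before the start, against 2.21% of the 27025 promoters in the table. These are Mup6, Pate12, Obp1a, Bpifa5, Reg2 and Gkn2. No share is given over all called genes or over the largest falls, because only 333 of 427 and 101 of 140 called genes, and 11 of the 15 largest falls, had a promoter in the table, under 80% of each set. The match is a description of letters, and says nothing of which factor binds.

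Tuft cell genes formed a group on the mTEClo side. Tuft cells are chemosensory epithelial cells that use taste-signalling proteins and release IL-25 and leukotrienes. Gnat3, the taste G protein gustducin, read 8.85 and 7.64 in Aire+/+ mTEChi, 9.15 and 7.95 in Brg1+/+ mTEChi, 11.17 in Aire+/+ mTEClo and 11.39 in Brg1+/+ mTEClo. Dclk1, a tuft cell kinase, read 7.03 and 5.95, then 6.85 and 6.27 against 9.02 and 9.19. Both mTEClo arrays lay above all 4 mTEChi arrays, and among the mTEChi arrays those numbered 2 were the lower. Gnat3 fell 7.37-fold (log2 -2.88, SE 0.46, limma adjusted p = 0.0213) and Dclk1 5.98-fold (log2 -2.58, SE 0.392, limma adjusted p = 0.0181). Neither was called when the 6 wild-type arrays alone were fitted (limma adjusted p = 0.0791 for Gnat3 and 0.0587 for Dclk1), nor without either mTEClo array (0.125 to 0.184 over both genes).

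Of 31 tuft cell genes 8 fell (25.8%, against 0.632% of all genes) and 0 rose, and with the array number 19 fell. The others were Rgs13 (-2.37), the cytokine Il25, the adaptor genes Sh2d6 (-1.99) and Sh2d7, the leukotriene synthase Ltc4s (-1.56) and the taste phospholipase Plcb2 (-1.22). Il25 read 6.24 and 6.38, then 6.14 and 6.71 in mTEChi against 8.04 and 8.70, and fell 4.01-fold. The list's median was -1.13. Its summed linear intensity ran from 2668 to 3187 on the mTEChi arrays and from 8811 to 9684 on the mTEClo arrays. Trpm5, the taste cation channel, differed by -1.08 (limma adjusted p = 0.0813), which was called with the array number (limma adjusted p = 0.0218). Pou2f3, the transcription factor that specifies tuft cells, lay between 4.36 and 4.88 on all 6 arrays with a difference of -0.07 (limma adjusted p = 0.918). These readings lie below the array medians (5.32 to 5.50) and are not known to lie above background, so a difference could be missed.

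Bitter taste receptors fell as well. Of 35 Tas2r genes 10 fell (28.6%) and 0 rose, and with the array number 17 fell. Tas2r109 read 3.79 and 4.62 in Aire+/+ mTEChi, 5.34 and 6.11 in Brg1+/+ mTEChi, against 7.72 and 7.76 in mTEClo, a fall of 2.78 on the log2 scale (SE 0.484, limma adjusted p = 0.0308). Tas2r105 read 9.29 and 9.83 in mTEClo against 7.12 to 7.73 in mTEChi. For Tas2r109 the Brg1+/+ mTEChi arrays stood above the Aire+/+ mTEChi arrays. Tas2r138 read higher in Brg1+/+ mTEClo (7.37) than in Aire+/+ mTEClo (5.71). The fall of Tas2r118 (-2.44) was not called after quantile normalization (limma adjusted p = 0.0554). In bulk samples, fewer cells of a type and less RNA per cell cannot be told apart.

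**Figure D4:**
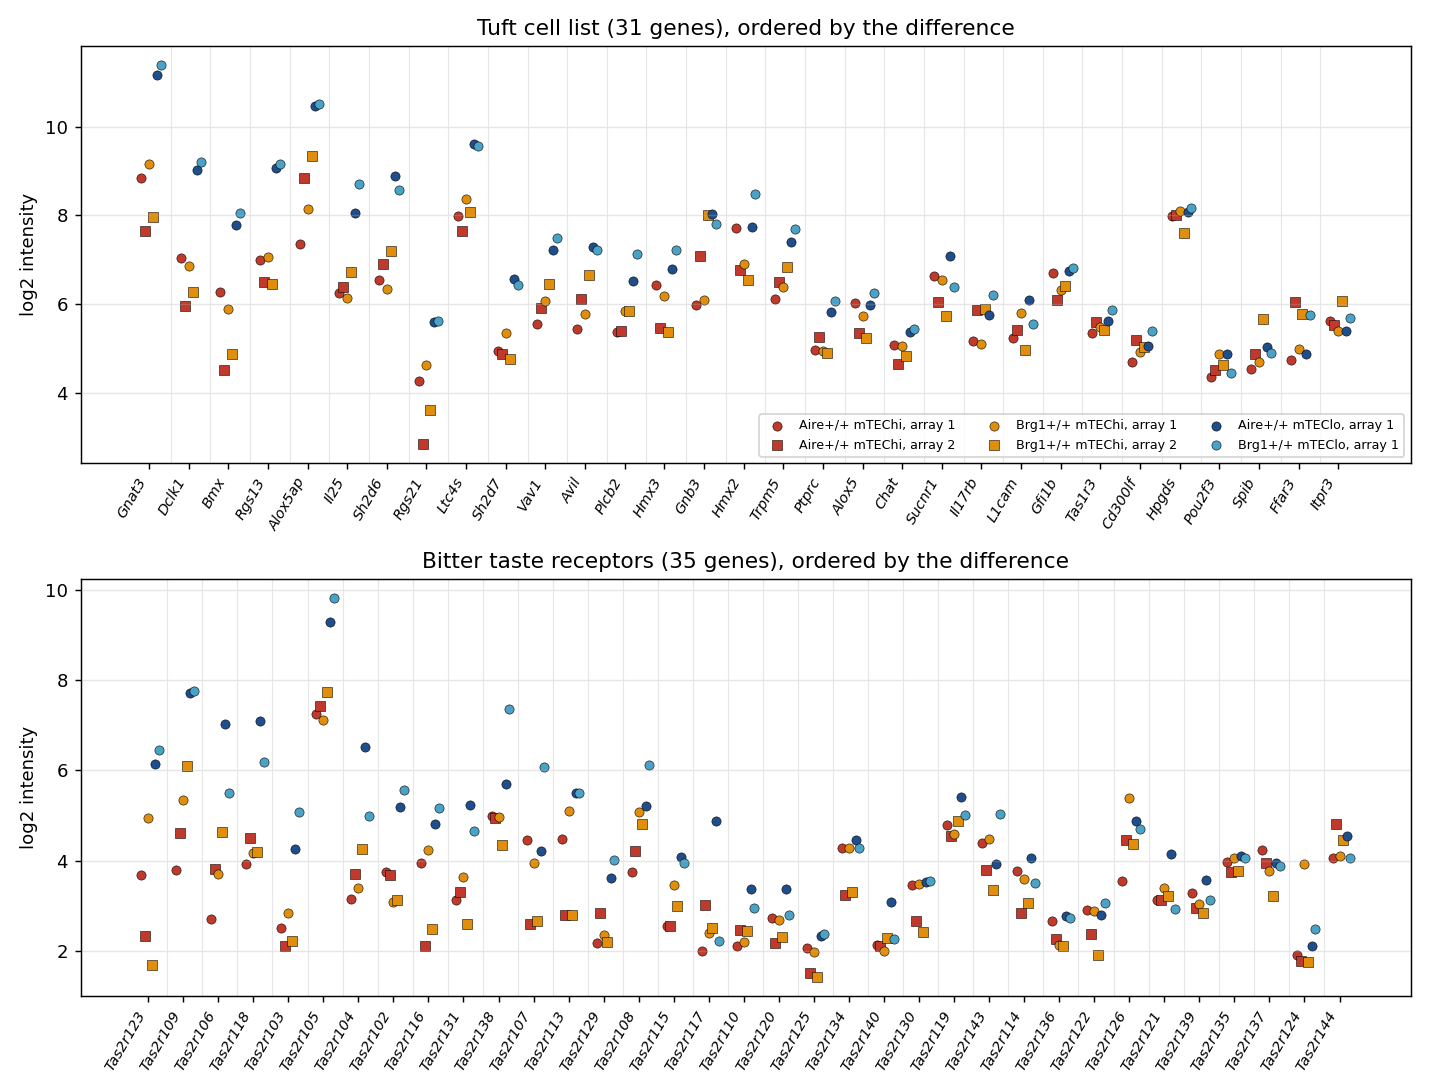
Log2 intensity on the 6 wild-type arrays of the 31 tuft cell genes (top) and 35 bitter taste receptors (bottom), each ordered by the mean difference; colours give line and cell type, circles arrays numbered 1 and squares arrays numbered 2. On the left of each panel the 2 mTEClo arrays (blue) sit above all mTEChi arrays, as for Gnat3 at 11.2 and 11.4 and Il25 at 8.04 and 8.70.

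Contractile, signalling and adhesion genes made up a further part of the mTEClo side. Tagln, an actin-binding gene of smooth muscle, read 7.47 and 7.38 in Aire+/+ mTEChi, 7.17 and 7.91 in Brg1+/+ mTEChi, 10.85 in Aire+/+ mTEClo and 10.20 in Brg1+/+ mTEClo, and fell 8.24-fold (log2 -3.04, SE 0.314, limma adjusted p = 0.00521). Of 20 contractile genes 4 fell and 1 rose, and with the array number 8 fell. Cavin2 (-2.43), Myl9 (-2.35) and the caldesmon gene Cald1 (-2.22) fell with Tagln, while Cnn1, the calponin gene, rose by 1.71. Without the Aire+/+ mTEClo array Tagln was not called (limma adjusted p = 0.0742). Of 39 genes of Notch, Wnt, BMP, FGF and EGF signalling 2 fell and 0 rose: Fst, which encodes the activin and BMP antagonist follistatin (-2.42), and Id1, a BMP target (-2.23). The array number took this to 6 falls. Of 29 basement membrane and adhesion genes Lamb1 (-1.26) and Ccn1 (-1.91) fell.

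Of 25 genes listed for mTEClo and progenitors 2 fell, the cytokine receptor Lifr (-2.38) and Igfbp5 (-2.03), and with the array number 5. Lifr read 4.98 to 5.52 on the mTEChi arrays against 7.75 and 7.35 on the mTEClo arrays. Krt14, a basal keratin gene, read 10.82 and 11.07 in Aire+/+ mTEChi, 10.82 and 11.68 in Brg1+/+ mTEChi, against 12.10 and 11.89 in mTEClo. Its difference of -0.90 (SE 0.287, limma adjusted p = 0.221) was called only with the array number (limma adjusted p = 0.0142). Itgb4 (-0.30) and Pdpn (-0.58) were not called in either fit. Scx, a tendon transcription factor gene on the cortical epithelium list, fell from 10.11 and 9.55 in mTEClo to between 6.90 and 7.71 in mTEChi.

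The other genes among the 15 largest falls were the cysteine protease inhibitor genes Ctla2b (-3.35) and Ctla2a (-2.53), the adhesion gene Mpzl2 (-2.82), the fatty acid transporter Cd36 (-2.58) and the transcription factor gene Creb3l4 (-2.40). Ctla2b read 4.87 and 4.40 in Aire+/+ mTEChi, 4.00 and 4.21 in Brg1+/+ mTEChi, against 7.44 and 7.99 in mTEClo. This was the largest fall among genes the naming rule allows (SE 0.321 on the log2 scale, limma adjusted p = 0.00393). Its low mTEChi readings are not known to lie above background, so no linear fold is given. Each of the 15 largest falls lost its call when an mTEClo array was left out, though none changed sign. For Ctla2b and Ctla2a this was the Brg1+/+ mTEClo array, and for the others the Aire+/+ mTEClo array. Interferon response genes had a median of -0.62. Of 24 only the viral RNA sensor gene Ddx58 fell (-2.19), and with the array number 10 fell and 0 rose. Isg15 read 10.25 to 10.53 in mTEChi against 11.34 and 11.45 in mTEClo, a difference of -0.99 (limma adjusted p = 0.0526).

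Markers of other cells that a sort could hold were read on the same arrays. Epithelial genes were high everywhere: Epcam lay between 8.48 and 9.29 and Krt18 between 11.61 and 11.99, and neither differed beyond the threshold (limma adjusted p = 0.591 and 0.634). Ptprc, which encodes the CD45 that the sort excluded, lay between 4.89 and 6.07, with a difference of -0.93 (limma adjusted p = 0.0989) that was called with the array number. Of 24 genes of dendritic cells, macrophages and B cells 1 rose, Fcer1g (2.15), or 4 rose and 1 fell with the array number, and the summed intensity of the list ran from 3667 to 4096 in mTEChi and from 1782 to 2339 in mTEClo. Of 19 endothelial genes Cd36, Emcn (-2.15) and Cldn5 (-1.93) fell, while Pecam1 and Cdh5 differed by -0.72 and -0.10 and were not called. The endothelial sum ran from 710 to 792 in mTEChi and from 1136 to 1300 in mTEClo.

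The summed intensity of 17 fibroblast genes was lower in mTEChi (1514 to 1739 against 2049 to 2556), with 0 genes called in limma (1 higher and 3 lower with the array number). Col1a1 and Pdgfra lay at most at 5.92 on every array, but the brightest reading of the list was 10.45. Differences in the list ran from -1.52 to 0.81. Of 16 thymocyte genes 0 were called, and their sums ran from 880 to 1663 in mTEChi and from 815 to 819 in mTEClo, with Cd3d at 9.03 on Aire+/+ mTEChi array 2. The platelet chemokine Pf4 rose by 2.00, the only one of 5 erythroid and platelet genes called (2 with the array number). These 5 are all that were measured of 13 listed. Their sum was 1183 to 1664 against 433 to 552. Gp9 (1.15) and Ppbp (0.98) differed upward, and Slc4a1 (-0.17) and Itga2b (-0.27) downward. Sums of linear intensity are weighted to the brightest genes of a list. Of 15 cortical epithelial genes Ccl25 and Tbata rose and Scx fell, and 4 fell with the array number. The part of any of these cells in the differences was not tested.

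Several programmes showed no called member in limma: 34 cell cycle genes, 25 SWI/SNF subunits, 20 microfold cell genes, 31 cornified keratinocyte genes, 22 genes of p53 response and apoptosis, 4 sex-linked genes and 12 housekeeping and noncoding controls. Over all genes 1.93% rose and 0.632% fell, so the lack of a call in lists of these sizes says little about them. With the array number 4 microfold genes rose and 1 fell, and 2 apoptosis genes rose and 3 fell. That fit called 4.81% of all genes higher and 3.12% lower. Of 25 genes of NF-kB and TNF receptor signalling 1 rose (3 with the array number), and of 46 transcription factors of mimetic lineages 1 rose (2 rose and 1 fell with it). The proliferation gene Mki67 differed by -0.05 and Top2a by 0.23. Smarca4 itself lay between 5.95 and 6.89 (difference 0.25, limma adjusted p = 0.745). Of 27 Aire partners and chromatin genes the deacetylase Sirt1, which acts on Aire, rose by 1.31, and Xrcc5, the Ku80 gene, fell by 1.96 on the log2 scale. Among immediate early and heat shock genes 0 of 24 were called, and with the array number 4 fell. Jun read 10.47 then 7.68 in Aire+/+ mTEChi, 10.67 then 8.23 in Brg1+/+ mTEChi, lower on each second array, against 10.94 and 11.61 in mTEClo, and was not called in either fit (limma adjusted p = 0.553 and 0.0657).

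The array also reads microRNA precursors. Of 467 measured, 2 rose and 3 fell, shares no higher than about those of all genes (1.93% and 0.632%), and these 5 are named after their values were seen. The array number as a term gave 3 rises and 8 falls. Mir215, a precursor known from the intestine, read 7.20 and 8.32 in Aire+/+ mTEChi, 7.34 and 6.81 in Brg1+/+ mTEChi, 3.21 in Aire+/+ mTEClo and 4.43 in Brg1+/+ mTEClo, a rise of 3.60 (SE 0.455, limma adjusted p = 0.0105). Mir142, known from blood cells, read 6.87 and 7.93, then 7.65 and 7.83 against 5.95 and 4.49, and rose by 2.35. Mir205, known from basal epithelium, read 3.84 to 4.37 in mTEChi against 5.43 and 5.53, and fell by 1.44 on the log2 scale. Mir100 (-1.67) and Mir653 (-1.81) each stood on 1 mTEClo array. Mir100 read 5.30 in Aire+/+ mTEClo and 3.08 in Brg1+/+ mTEClo, and Mir653 read 2.33 and 5.30. The mature RefSeq sequences of the first 3 are shown for reference, since the probe sets read precursors and do not tell the arms apart. Capitals mark the seed, bases 2 to 8, and none of the 6 seeds is shared.
mmu-miR-215-5p: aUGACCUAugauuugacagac
mmu-miR-215-3p: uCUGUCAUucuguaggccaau
mmu-miR-142a-5p: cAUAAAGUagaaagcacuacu
mmu-miR-142a-3p: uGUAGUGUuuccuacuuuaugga
mmu-miR-205-5p: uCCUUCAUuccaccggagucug
mmu-miR-205-3p: gAUUUCAGuggagugaagcuca

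No array is shared between the Aire and Brg1 lines. Across 22154 genes their differences correlated with a Pearson r of 0.721 and a Spearman rho of 0.577, and with 0.646 and 0.427 on the arrays numbered 1 alone, where genes are not independent replicates and both lines share the array numbers. In both lines 398 of the 427 higher genes and 111 of the 140 lower genes passed a 2-fold difference. That count is a description, since the genes were called on the average of the same line differences. A test of the difference between lines called 0 genes in limma, 295 at an unadjusted p under 0.05, and again 0 with the array number (1355). If no gene differed, about 1108 of the 22154 genes would lie under an unadjusted limma p of 0.05. The same number applies to the tests against Aire-/- and Brg1-/- below. The 0 calls do not show that the lines are alike. Single mTEClo arrays still set some values. Csta3 read 6.56 in Aire+/+ mTEClo and 1.80 in Brg1+/+ mTEClo, which gives a difference of 2.11 in the Aire line and 7.37 in the Brg1 line. Reg3b read 11.15 and 7.49 on the same arrays, and its lowest mTEChi value, also 11.15, did not clear the Aire+/+ mTEClo array. Without the Aire+/+ mTEClo array 80 genes were called, and without the Brg1+/+ mTEClo array 130.

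The rise of tissue genes was then set beside the same difference in Aire-/- cells. The Aire probe set read 9.01 and 9.73 in the mTEChi arrays labelled Aire-/- and 6.72 in Aire-/- mTEClo, no lower than in wild type. Its position relative to the deleted part of the gene is not known here, so it checks no label. Maturation genes kept a like median in the Aire line, 1.03 in Aire+/+ and 1.13 in Aire-/-, and tuft cell genes gave -0.84 and -0.91. The 300 tissue genes had a median of 0.60 in Aire+/+ and -0.02 in Aire-/-. Alpha-defensins gave 3.27 and -0.23, Reg lectins and resistin-like genes 2.19 and 0.38, lipocalins 1.98 and 0.14, and kallikreins 0.99 and 0.44. The medians are descriptions, with no test of a list.

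**Figure D5:**
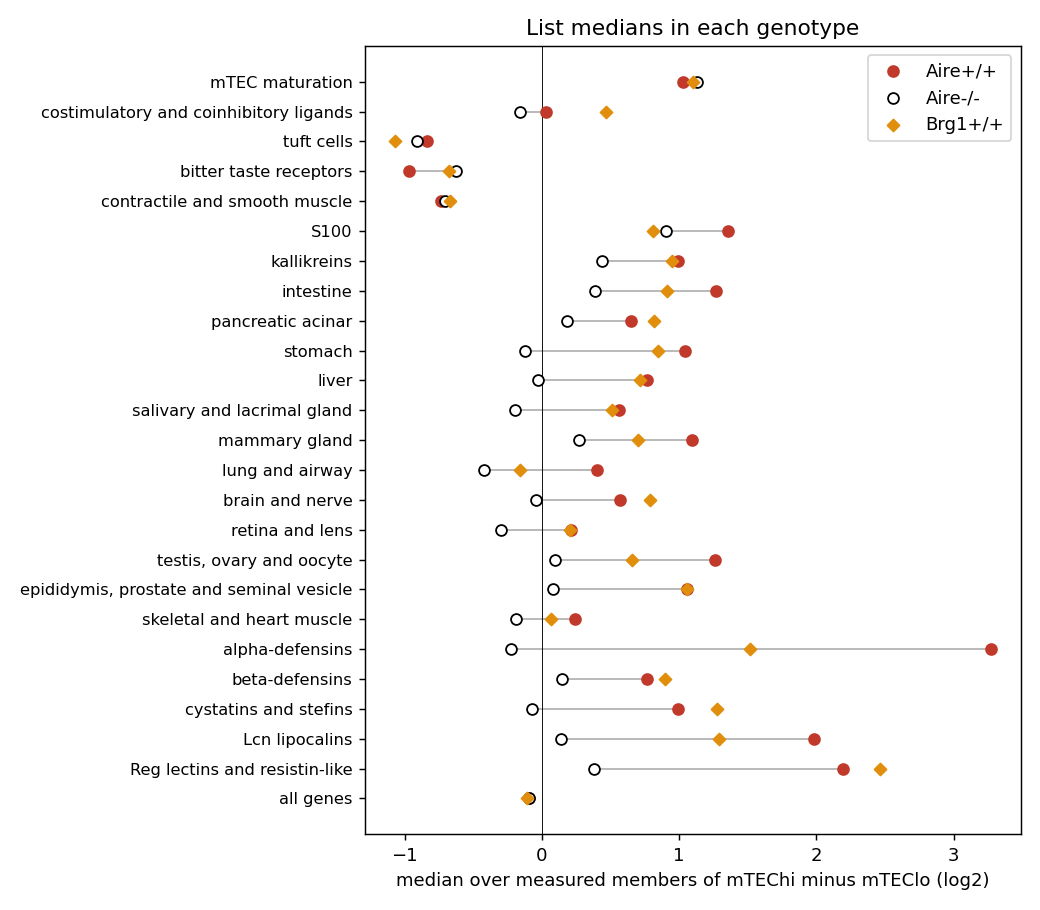
Median over each list's measured members of mTEChi minus mTEClo (x, log2) in Aire+/+ (filled circles), Aire-/- (open circles) and Brg1+/+ (diamonds), with a line joining the genotypes of the Aire line. Alpha-defensins lie at 3.27 in Aire+/+ and -0.23 in Aire-/-, and intestine genes at 1.27 and 0.39, while lung and airway genes lie at 0.40 and -0.42 and retina and lens genes at 0.21 and -0.30; the maturation list lies at 1.03 and 1.13 and the tuft cell list at -0.84 and -0.91.

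Tested gene by gene, the difference between Aire+/+ and Aire-/- in mTEChi minus mTEClo was called for 0 genes in limma (547 at an unadjusted p under 0.05). With the array number it was called for 62 genes with a larger value in Aire+/+ (0.280%) and for 4 with a smaller one (0.0181%). Mup20 had the largest difference: mTEChi minus mTEClo was 5.44 in Aire+/+ and -1.93 in Aire-/-, where it read 4.80 and 3.73 in mTEChi and 6.19 in mTEClo (difference 7.36, SE 0.468, limma adjusted p = 0.00486 with the array number). Usp17lc (6.30), Defb50 (6.21), the cytokine Il9 (5.54) and Bpifa5 (5.16) followed. In the other direction Klk1b1 gave 2.66 in Aire+/+ and 5.82 in Aire-/-, Yae1d1 0.49 and 3.30, and H2-Eb2 2.02 and 4.40, each called with the array number. H2-Eb2 was not called when the number was fitted within each line. Klk1b1 read 3.28 on the single Aire-/- mTEClo array and 7.53 on the Aire+/+ mTEClo array.

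Among the 15 largest rises the values of the Aire line show both kinds side by side. Klk1b9 gave 4.49 in Aire+/+ and 5.05 in Aire-/-, and Csta3 2.11 and 2.54. Lcn8 gave 4.65 and 0.15, Gkn2 4.07 and 0.02, and Mcpt2 5.33 and 0.72. The Aire+/+ values enter both this comparison and the main one, so these pairs are not independent of the choice of genes. The same test against Brg1-/- called 0 genes in limma (296 at an unadjusted p under 0.05), and 0 with the array number (1250).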

How the data were processed

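RNA was measured on 12 biotin-labelled Affymetrix arrays. The deposited table gives 1 linear intensity per probe set and array for 33732 probe sets, and, per the submitters' processing notes, the tools were Transcriptome Analysis Console, Affymetrix Expression Console and RMA; versions are not given in the sources used here. Each deposited intensity is 2 raised to a number with 2 decimals, so log2 values carry a step of 0.01. Background and quantile steps of RMA compress differences of dim genes, and no detection call was used.

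Values were turned into log2 with no pseudocount. Names came from GEO's platform annotation, which gave 1 symbol for 23491 probe sets, several for 1811 and none for 8430. The brightest probe set per gene left 22154 genes, 21968 of them matched to RefSeq GRCm38.p6. Levels of different genes are not comparable, since probes differ.

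Samples were grouped by label into 8 groups and fitted as 8 means over 12 arrays with limma 3.58.1 in R 4.3.3 (lmFit, eBayes; 4 residual and 3.46 prior degrees of freedom; 3 and 5.05 with the array number), two-sided. Each mTEClo group is 1 array, assumed to vary like the mTEChi groups. SE is limma's moderated standard error. Array numbers were checked as a pairing by the correlation of array 1 minus array 2 between mTEChi groups (0.552 to 0.657). The labels give the numbers and not what they mark. The fit was tested on simulated arrays with known changes. Their noise was independent between arrays, so that test leaves out the shared shift by array number.

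Members, gene lists (43) and families (33) were chosen with earlier results of these data known. The naming rule takes Cd80, Cd86 and Aire, the 15 largest rises and 15 largest falls that were called, did not overlap between groups and kept their direction on arrays numbered 1 in both lines, up to 5 genes each way for differences between genotypes, and list members. MicroRNAs, clone names, predicted genes and olfactory and vomeronasal receptors are left out. The S100 family pattern also takes in S100pbp, which is not an S100 gene. Alternatives were array number, wild-type arrays alone, scaling, a filter, the probe set rule, the variance trend and leaving out each array.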

Additional observations from a re-analysis of the deposited data

How the results depend on the processing

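The count of called genes (567: 427 higher and 140 lower) depended most on how many arrays and how much of their spread entered the fit. With the array number as a replicate block common to all groups it was 1757 (1065 and 692), and with the number within each line 1534 (982 and 552). For the difference between Aire+/+ and Aire-/- the same blocks gave 66 (62 and 4) and 63 (60 and 3) in place of 0. The 6 wild-type arrays alone gave 248 (212 and 36), the Aire line alone 130 (111 and 19) and the Brg1 line alone 80 (75 and 5). Leaving out 1 array in turn gave 80 to 470 genes (75 to 383 higher, 5 to 93 lower), with 325 without Aire+/+ mTEChi replicate 1, 307 without replicate 2, 80 without Aire+/+ mTEClo and 130 without Brg1+/+ mTEClo. Without the only wild-type mTEClo array of a line, the contrast is that of the other line alone. Those runs therefore repeat the single-line fits and are no separate check. All these settings leave fewer arrays or residual degrees of freedom, and other causes were not tested. Centring, quantile normalization, the filter, the mean over probe sets and the variance trend gave 551 to 617 called genes. The differences between genotypes and lines could not be fitted without an mTEClo array they use. Of the 33 named genes none changed sign under any setting run. Rgs13 was not called with the variance trend (limma adjusted p = 0.0519). Rgs13, Tas2r118 and Mpzl2 were not called without any 1 of the 6 arrays. Of the named genes, 16 lost their call without the Aire+/+ mTEClo array and 16 without the Brg1+/+ mTEClo array. The 2 sets overlap only in part: Tagln is in the first alone and Mup6 in the second alone. Dim genes carry compressed differences, and each mTEClo group rests on 1 array.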

Other observations

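Some genes are named here only after their values were seen, and stand for no group. Sntn, a gene of ciliated cells, read 8.94 in Brg1+/+ mTEClo, 7.06 in Aire+/+ mTEClo and 5.58 to 6.72 in mTEChi (difference -2.10, limma adjusted p = 0.0199). Ccdc153 (-1.61) and Tmem212 (-1.54) were likewise highest in Brg1+/+ mTEClo, at 9.92 and 10.42, while Foxj1, the transcription factor gene of ciliated cells, differed by 0.08 and was not called. The stromal genes Ccl11 and Mgp also fell, by 2.33 and 2.10 on the log2 scale. Ccl11, an eosinophil chemokine gene, read 10.50 and 9.58 in mTEClo against 7.61 to 7.91 in mTEChi. The eosinophil gene Prg3 rose by 3.47, from 6.75 and 6.86 to between 10.07 and 10.44, and the cathelicidin gene Camp by 3.42.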
